A study of Mus musculus with 13 samples.

Results

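At 4 loci outside the Hox clusters, the leukaemia fusion protein NUP98-PHF23 (NP23) formed broad domains in the mouse line 961C. The loci are mm9 windows named for the genes B3gnt2 (chromosome 11, 22730000 to 22770000), Tsc22d2 (chromosome 3, 58210000 to 58240000), Purb (chromosome 11, 6360000 to 6380000) and Smc4 (chromosome 3, 68800000 to 68825000). Every peak that overlapped a window was taken, which gave 43 of the 109165 peaks in 9 lists: 18 of NP23, 25 of H3K4me3 and 0 of H3K27me3. The loci were selected on the widths of NP23 and H3K4me3 in 961C, so those widths are given as a description and no test was made on them.

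The NP23 and H3K4me3 lists of 961C came from a cytokine-independent C57BL/6 line of NUP98-PHF23 acute myeloid leukaemia (AML). NP23 was precipitated through a V5 tag from cells labelled 961C-V5, and whether the H3K4me3 library came from tagged cells is not stated in the labels. Lines 748T and 106A (titled M106A for its samples) were C57BL/6 lines from NUP98-PHF23 pre-T LBL, a lymphoblastic leukaemia or lymphoma of T cell precursors, of different mice, and form a group of 2 samples per mark. The control was a line from SCL-LMO1 pre-T LBL on a C57BL/6 and C3H hybrid background, which carries no NP23, so that oncogene and strain differ together. All 4 lines were grown as cytokine-independent cultures. Each histone mark has 1 library per line and NP23 has 1 library, from 961C alone, so lines and libraries cannot be told apart and NP23 was not measured in the other lines. The identity of the lines was not checked against marker genes here.

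NUP98 is a nuclear pore protein with repeats that draw in other proteins. PHF23 brings a PHD finger, a fold that binds histone H3 trimethylated at lysine 4 (H3K4me3). H3K4me3 normally marks the start of active or poised genes as a short region, and it spreads into broad domains at some genes. Polycomb complexes deposit H3K27me3, a mark of repressed genes. B3gnt2 encodes a glycosyltransferase that builds polylactosamine chains on glycoproteins. Tsc22d2 encodes a leucine zipper protein of the TSC22 family, Purb a protein that binds purine-rich single-stranded DNA and RNA, and Smc4 a core ATPase of the condensin complexes that compact mitotic chromosomes.

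The promoters of B3gnt2 and Purb are shown because H3K4me3 is found above all at CpG-rich gene starts and both windows hold it in all 4 lines. RefSeq sequences matched 2 of the 4 genes, B3gnt2 and Purb. They run from 250 bases before to 50 after the gene start, on the minus strand of GRCm38.p6 chromosome 11 (22859686 to 22859985 for B3gnt2, 6476027 to 6476326 for Purb), with CG dinucleotides in capitals.
B3gnt2: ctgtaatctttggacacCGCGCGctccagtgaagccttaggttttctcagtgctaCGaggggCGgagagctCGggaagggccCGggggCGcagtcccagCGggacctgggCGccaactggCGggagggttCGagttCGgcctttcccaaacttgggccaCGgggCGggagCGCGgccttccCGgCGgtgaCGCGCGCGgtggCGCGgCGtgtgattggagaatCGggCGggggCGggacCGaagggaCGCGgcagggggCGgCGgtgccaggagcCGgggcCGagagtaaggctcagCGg
Purb: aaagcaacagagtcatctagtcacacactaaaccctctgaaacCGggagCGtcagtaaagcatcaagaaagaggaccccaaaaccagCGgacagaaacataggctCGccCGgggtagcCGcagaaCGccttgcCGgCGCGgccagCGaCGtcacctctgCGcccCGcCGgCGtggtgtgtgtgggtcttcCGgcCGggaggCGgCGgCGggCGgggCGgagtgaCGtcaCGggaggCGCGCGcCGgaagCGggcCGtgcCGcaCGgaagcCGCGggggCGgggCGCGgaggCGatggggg
B3gnt2 has 37 CG dinucleotides in these 300 bases and Purb has 39, against a median of 7 over 32851 promoters. Of all promoters, 94.4% have fewer than B3gnt2 and 95.6% have fewer than Purb. The motif GGGCGG, on both strands, occurs 5 times in B3gnt2 and 3 times in Purb, and 35.7% of all promoters hold it. TATAAA, on both strands, is in neither window, and 13.6% of all promoters hold it. The peaks are on mm9 and the promoters on GRCm38.p6, so peaks were not placed on these bases. The same annotation lists Mir15b and Mir16-2 inside Smc4 and no gene overlapping B3gnt2, Purb or Tsc22d2. Which of the neighbouring gene starts lie inside the mm9 domains was not analysed here.

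NP23 covered most of the H3K4me3 at each locus in 961C and almost nothing beyond it. At B3gnt2, 10 NP23 peaks covered 14.3 kb and 4 H3K4me3 peaks covered 20.1 kb, and NP23 lay on 71.4% of the marked bases. Of the NP23 bases there, 2 lay outside H3K4me3. The gaps between its NP23 peaks were 198 to 1128 bp, so binding was listed as a broken stretch with a widest piece of 3709 bp. The widest H3K4me3 peak alone (22745217 to 22762009, 16793 bp) was 79.1% covered. At Tsc22d2, 4 NP23 peaks covered 12.7 kb and a single H3K4me3 peak covered 15.1 kb (58217725 to 58232826), of which NP23 lay on 83.5%. A short NP23 peak beyond the H3K4me3 edge accounts for the 93 NP23 bases outside it.

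Purb had the smallest H3K4me3 extent of the 4 loci in 961C and, with peaks as deposited, the most complete NP23 cover. With peaks joined within 1 kb, Tsc22d2 was covered more fully (91.1%) than Purb (88.7%). At Purb, 2 NP23 peaks covered 7.84 kb, of which 7574 bp lay in 1 peak (6368173 to 6375746). H3K4me3 covered 8.67 kb in 2 peaks, and NP23 lay on 90.5% of it. The small H3K4me3 peak at the high-coordinate end (6376155 to 6376648) held no NP23. At Smc4, 2 NP23 peaks covered 8.59 kb of a single H3K4me3 peak of 11.1 kb (68807683 to 68818822), a share of 77.1%. No NP23 base lay outside H3K4me3 at Purb or Smc4.

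**Figure D1:**
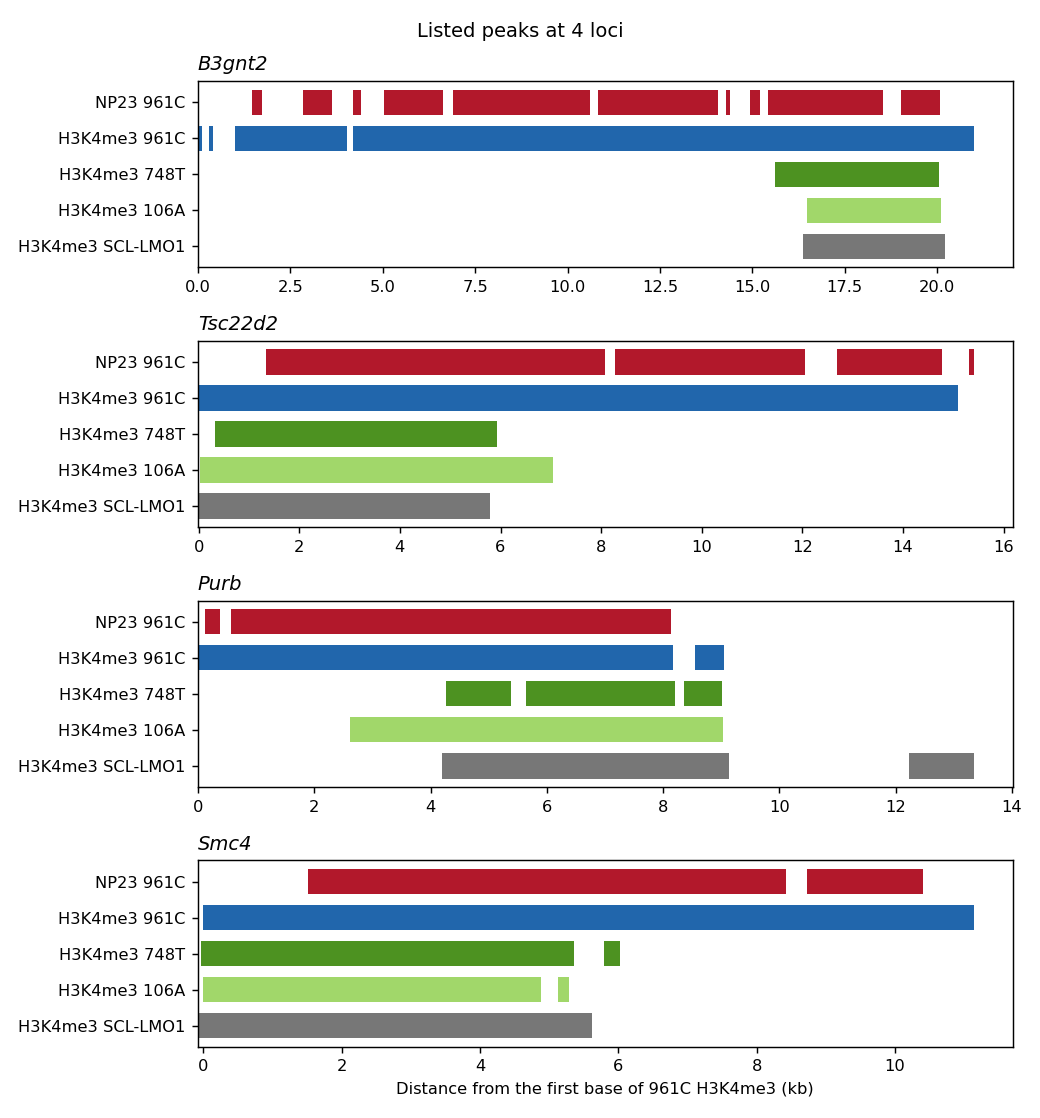
Peaks at each locus as bars along the distance in kb from the first base of 961C H3K4me3, with NP23 of 961C on top, then H3K4me3 rows for 961C, 748T, 106A and SCL-LMO1. Leaving aside the separate SCL-LMO1 peak at Purb, in each panel the other lines end within 938 bp of 961C on 1 side, and NP23 runs on with 961C H3K4me3 past their other end, at Tsc22d2 by a further 8057 bp of H3K4me3 beyond 106A.

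These loci are among the broadest of 961C without being all of the broadest. By the width of the widest peak, H3K4me3 at B3gnt2 ranked 3, at Tsc22d2 5, at Smc4 12 and at Purb 30 among 17696 peaks. The Purb peak of 8177 bp stands between peaks of 8229 and 7979 bp, and the Smc4 peak of 11140 bp between peaks of 11581 and 11084 bp. The 18 NP23 peaks were 1.1% of the NP23 list and 5.38% of the bases it covered, and 12 of them were 500 bp or more wide. The widest NP23 peaks of Purb, Smc4 and Tsc22d2 ranked 7, 8 and 9 by width among 1629, whereas the widest at B3gnt2 ranked 37.

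**Figure D2:**
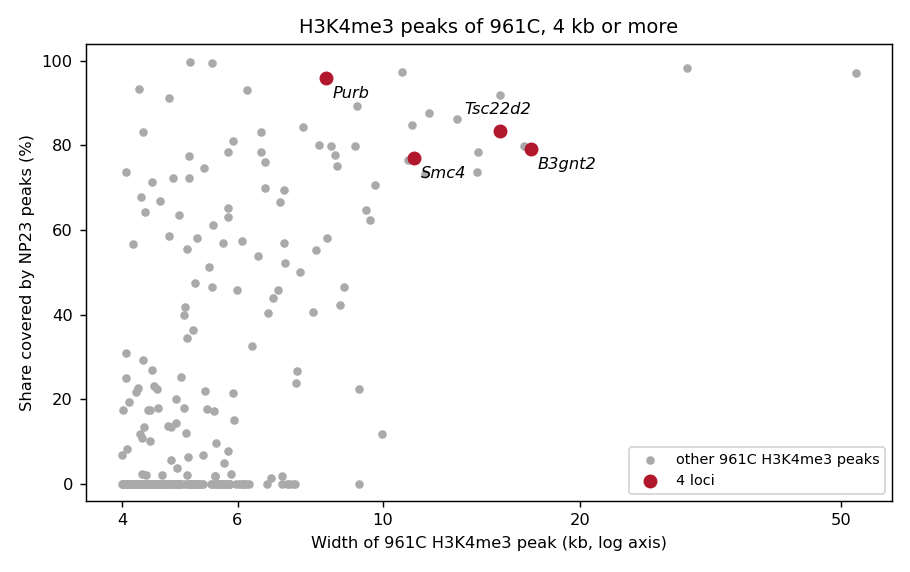
Width in kb (log axis) of each 961C H3K4me3 peak of 4 kb or more against the share of its bases under NP23 peaks, in percent, with the 4 loci in red and the others in grey. For the widest peak of each locus the share was 79.1% at B3gnt2, 83.5% at Tsc22d2, 95.9% at Purb and 77.1% at Smc4. The 12 other peaks of 10 kb or more, without the 4 loci, spanned 73.2% to 98.2%. The Purb peak (8177 bp) is narrower than that class.

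H3K4me3 was listed at all 4 loci in every line, and it covered fewer bases in the other lines than in 961C. B3gnt2 had 20.1 kb in 961C, against 4.45 kb for 748T, 3.62 kb for 106A and 3.85 kb for the SCL-LMO1 control. The 3 pre-T lines lie close together there, with or without NP23. The 961C extent was 4.98 times the mean of the NP23 pre-T lines (4.03 ± 0.587 kb, SD, n = 2) and 5.21 times that of the control.

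Tsc22d2 had 15.1 kb in 961C, against 5.61 kb for 748T, 7.02 kb for 106A and 5.81 kb for the SCL-LMO1 control. The 961C extent was 2.39 times the NP23 pre-T mean (6.32 ± 0.996 kb, SD, n = 2) and 2.6 times the control. Smc4 had 11.1 kb in 961C, against 5.62 kb for 748T, 5.05 kb for 106A and 5.7 kb for the SCL-LMO1 control. This is 2.09 times the NP23 pre-T mean (5.34 ± 0.404 kb, SD, n = 2) and 1.96 times the control. The SCL-LMO1 line lay between the 2 NP23 pre-T lines at Tsc22d2, as it did at B3gnt2, and just above both at Smc4. An SD of 2 lines is a weak measure of their spread.

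Purb differed least between lines, with 8.67 kb in 961C, against 4.35 kb for 748T, 6.42 kb for 106A and 6.04 kb for the SCL-LMO1 control. The 961C extent was 1.61 times the NP23 pre-T mean (5.38 ± 1.46 kb, SD, n = 2) and 1.44 times the control. A separate peak of the SCL-LMO1 line across the window edge (6379837 to 6380944) counts in its 6.04 kb. Measured as the span from first to last base, which includes that peak, the fold over the control was 0.989, and with only the peaks that met 961C H3K4me3 it was 1.76. The 748T mark was in 3 pieces here, which leaves 106A with the longest unbroken H3K4me3 of the other lines (6415 bp).

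At a limit of 2 times the bases, 961C reached it over 748T at 2 of the 4 loci, 106A at 3 and the SCL-LMO1 line at 2. Over all 3663 merged H3K4me3 regions with 2 kb or more in 961C, the same limit was passed in 13.5%, 14.1% and 13.9%. B3gnt2 and Tsc22d2 passed it over all 3 lines at once, as did 9.83% of all regions. In regions of 4 kb or more, nearer to the loci in width, the limit was passed in 31.5% over 748T, 29.9% over 106A and 31.8% over the SCL-LMO1 line. The loci were picked for their width in 961C, so nothing is read from that difference. The folds at Smc4 over 748T (1.98) and over the control (1.96), and at Purb over 748T (1.99), lie just under the limit. At a limit of 1.5 the counts were 4, 3 and 3, and the shares of all regions 23.6%, 20.6% and 21.8%. The counts use all peaks of a window, whereas the shares use merged regions. With only the peaks that met 961C H3K4me3, Purb passed 1.5 over the SCL-LMO1 line too (1.76).

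**Figure D3:**
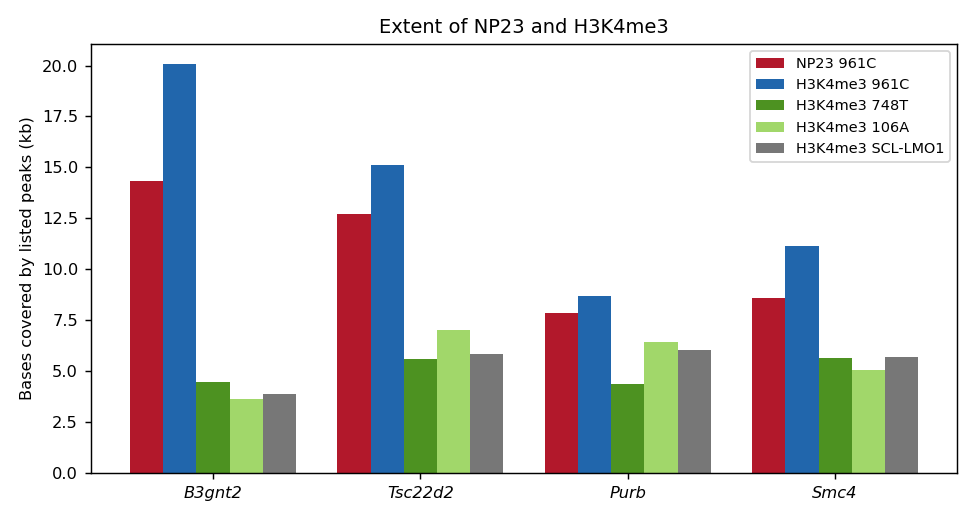
Bases in kb covered by the listed peaks at each locus, as bars for NP23 and H3K4me3 of 961C, then H3K4me3 bars for 748T, 106A and SCL-LMO1, 1 library each. The 961C H3K4me3 bar is the tallest at every locus, at 8.67 to 20.1 kb, and the NP23 bar is second, at 7.84 to 14.3 kb.

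The wider H3K4me3 of 961C had lower maximum heights in reads, except over the SCL-LMO1 line at Tsc22d2 (106 reads in 961C and 103 in the control). By mean height over the peaks it was also lower, except over 748T at Purb (29.2 reads in 961C and 25.5 in 748T). The tallest H3K4me3 peak at B3gnt2 reached 94 reads in 961C, against 129 in 748T, 125 in 106A and 127 in SCL-LMO1 cells. At Smc4 it was 76 reads in 961C, against 154, 185 and 143 in those lines. Heights are not scaled to depth, and the median H3K4me3 peak reached 38 reads in 961C, against 76, 97 and 76 in the others. Within its own list the tallest 961C peak exceeded 96.9% of peaks at B3gnt2, 99.3% at Tsc22d2, 74.1% at Purb and 85.9% at Smc4. For 748T, 106A and the control in that order, it was 83.7%, 66.9% and 86.7% at B3gnt2. It was 89.5%, 99.7% and 61.5% at Tsc22d2, 66.6%, 57.7% and 61.5% at Purb, and 97.6%, 99.7% and 98.5% at Smc4. By this rank 961C stood above the other lines at B3gnt2 and Purb, below them at Smc4 and between them at Tsc22d2.

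Of the summed H3K4me3 pileup in its own list, B3gnt2 held 0.084% in 961C, against 0.0258% for 748T, 0.0224% for 106A and 0.0254% for the SCL-LMO1 control. Tsc22d2 held 0.0808% in 961C, against 0.029%, 0.0414% and 0.0309% in the other lines in that order. Purb held 0.0525% in 961C, against 0.0142%, 0.0224% and 0.0216%. Smc4 held 0.0568% in 961C, against 0.0374%, 0.0407% and 0.0347%. As by extent, 961C was highest at each locus by this share, with the smallest gap at Smc4. Such shares move with how much of each library was called as peaks, and over whole H3K4me3 lists the covered length was 20.4 to 21.9 Mb. Where a line has no peak, the mark was not detectable at its depth, which is unknown. The second track of the lists, read as background from its low values, averaged 0.285 to 0.368 reads over 961C H3K4me3 at the 4 loci, with a median of 0.264 over the list.

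Nearly all of the added H3K4me3 of 961C lay on 1 side of the mark shared with the other lines. At B3gnt2 the 961C mark reached 15606 bp further than 748T, 16489 bp further than 106A and 16361 bp further than the SCL-LMO1 line towards lower coordinates. Towards higher coordinates it reached 778 to 938 bp further. At Purb it also reached further towards lower coordinates, by 4272, 2614 and 4194 bp over the same lines, and the high-coordinate ends of all 4 lines stood within 107 bp. The separate SCL-LMO1 peak at 6379837 to 6380944, which meets no 961C peak, is set aside in these distances. RefSeq lists both genes on the minus strand of GRCm38.p6, which is the strand transcribed towards lower coordinates.

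At Tsc22d2 and Smc4 the added mark lay on the high-coordinate side. At Tsc22d2 it reached 9170 bp further than 748T, 8057 bp further than 106A and 9303 bp further than the SCL-LMO1 line. The low-coordinate ends of all 4 lines stood within 335 bp. At Smc4 it reached 5116, 5856 and 5522 bp further in that order, and the low-coordinate ends stood within 78 bp. The 748T, 106A and SCL-LMO1 ends at Smc4 differed by 740 bp on the side where 961C went on, less than the distance to the 961C end.

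A domain was called widened on 1 side where the widest 961C peak reached 2 kb or more past all 3 other lines at 1 end and less than 1 kb past at the other. These limits were set after the values of the 4 loci were seen. All 4 loci met them, as did 30 of the other 107 H3K4me3 peaks with NP23 and a width from 4 kb that met a peak in all 3 lines (28%, exact 95% interval 19.8 to 37.5). Among such peaks without NP23 it was 6 of 138 (4.35%, 1.61 to 9.22). Of the 12 other peaks of 10 kb or more, nearer to the loci in width, 9 met a peak in all 3 lines. These 9 are among the 107, and 5 of them (55.6%, 21.2 to 86.3) were widened on 1 side. With so few peaks and so wide an interval, no rise of the share with width is read from them. Widening by 1 kb or more at both ends was found in 10 of the 107 peaks with NP23 (9.35%) and 0 of the 138 without. Intervals cover counting error only. They treat the peaks of 1 library as independent, though some lie side by side, so they may be too narrow. Each called peak was also judged alone, with no limit on how far another line ran past its short end. Pieces of 1 broken stretch can thus each count as widened on 1 side. On chromosome 5, neighbouring peaks at 115219510 to 115224931 and 115225104 to 115233542 both counted, at opposite ends. How many counted peaks are such pieces was not computed. The shares with and without NP23 were not compared by a test. A peak counted as bound, or with NP23, where any NP23 peak overlapped it. Over the 127 bound peaks without the 4 loci, NP23 covered 1.48% to 99.6% of the bases (median 46.5%). Bound peaks were wider (median 5528 bp over the 127) than unbound ones (median 4548 bp over 172). The part of width in the difference between their shares was not tested. With limits of 1 kb and 0.5 kb, 3 of the 4 loci met the rule, B3gnt2 being the exception. So did 45 of the 107 other peaks with NP23 (42.1%) and 12.3% of the peaks without NP23. Of the 9 peaks of 10 kb or more, 4 met it (44.4%), a share close to that of the 107.

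NP23 covered both the added and the shared H3K4me3. The added part, marked in 961C and in no other line, was 15450 bp at B3gnt2, 8057 bp at Tsc22d2, 2614 bp at Purb and 5296 bp at Smc4. NP23 covered 67.1% of the added part at B3gnt2, against 85.9% of the part marked in all 4 lines. At Tsc22d2 it covered 85.7% of the added part and 81.4% of the shared part. At Purb the shares were 88.5% and 87.9%, and at Smc4 80.4% and 70%. Neither part was the more fully covered at all 4 loci.

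NP23 stopped short of the shared end of H3K4me3 by 1340 bp at Tsc22d2, 1512 bp at Smc4, 927 bp at B3gnt2 and 902 bp at Purb. At Purb this distance takes in the separate small H3K4me3 peak without NP23. At the other end NP23 stopped 1477 bp short at B3gnt2, 741 bp at Smc4 and 118 bp at Purb, and ran past the mark at Tsc22d2, so no end was the further one at all 4 loci. Of all NP23 bases, 72.4% at B3gnt2, 54.4% at Tsc22d2, 29.5% at Purb and 49.6% at Smc4 lay in the added part. At Purb most NP23 thus lay where at least 1 of the other lines carried H3K4me3 too.

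**Figure D4:**
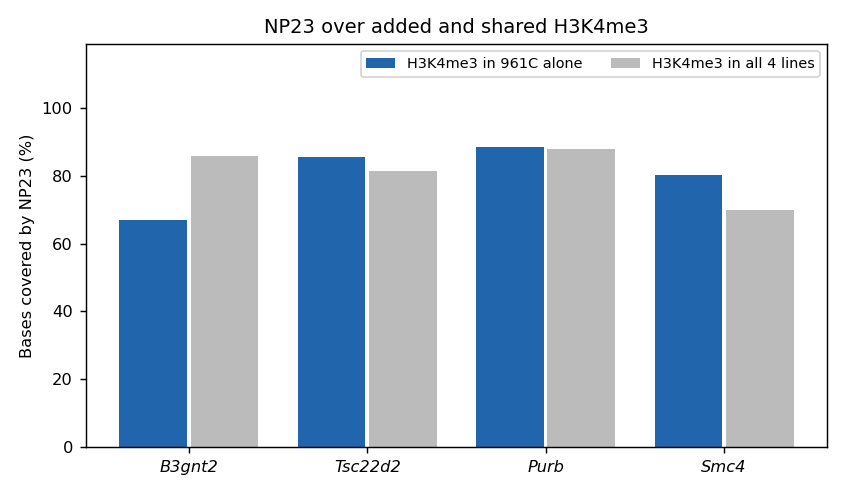
Percent of bases covered by NP23 peaks in H3K4me3 marked in 961C alone (blue) and in H3K4me3 marked in all 4 lines (grey), per locus. The blue bars run from 67.1% to 88.5% and the grey bars from 70% to 87.9%.

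NP23 peaks at Tsc22d2 were lower the further they lay from the shared end. They reached 82, 34, 21 and 8 reads in that order, with means of 19.4, 11.5, 7.09 and 6.06 reads. The first lay mostly over H3K4me3 shared with other lines, the next 2 in the added part, and the last beyond the 961C mark. The first of them ranked 6 by height in the whole NP23 list. At Smc4 the order was 29 and then 17 reads, and at Purb 35 and then 15. Widths fell in the same order. They were 6737, 3782, 2090 and 93 bp at Tsc22d2, 6918 and 1672 bp at Smc4, and 7574 and 269 bp at Purb. The first peak at Smc4 and at Purb lay over both shared and added H3K4me3. Distance and peak width therefore cannot be told apart in these maxima. B3gnt2 showed no such order of heights. Its tallest peak there (24 reads, 22751833 to 22755101) lay outside the H3K4me3 of every other line. A piece mostly over the shared mark reached 21 reads (22756453 to 22759552). The piece nearest the shared end, also over H3K4me3 of other lines, reached 11 reads (22760054 to 22761082). The NP23 list has a median maximum of 13 reads, and the lowest pieces at B3gnt2 reached 9 and 10.

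**Figure D5:**
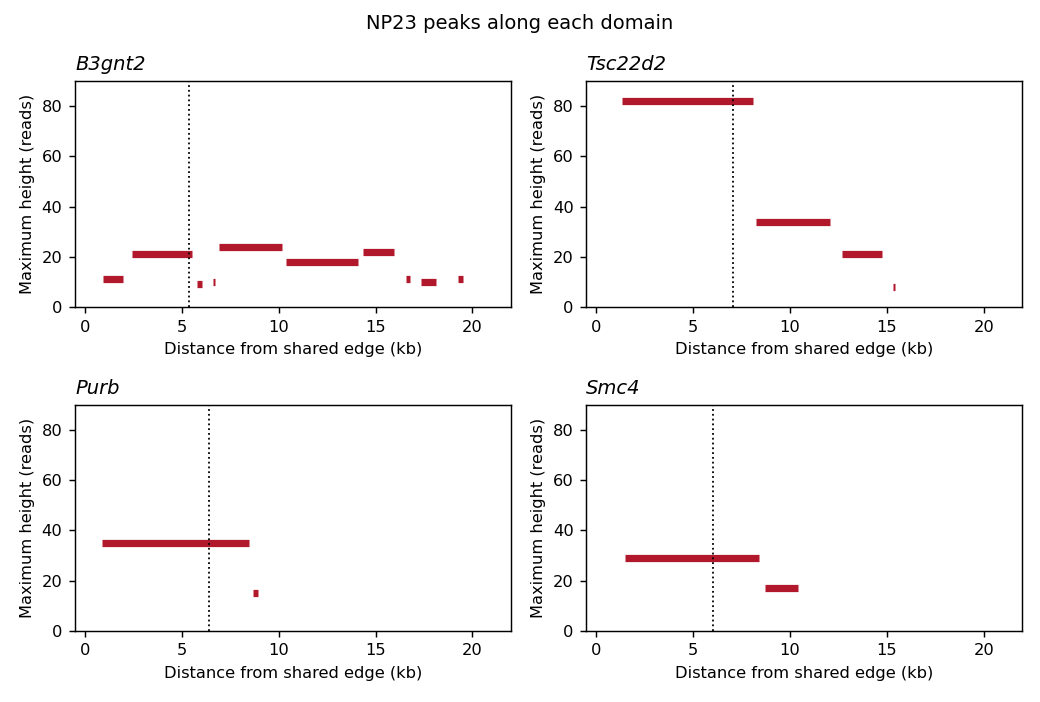
Maximum height in reads of each NP23 peak of 961C, drawn as a line from its first to its last base, against the distance in kb from the end of H3K4me3 shared with the other lines. The dotted line is the furthest reach of H3K4me3 in any other line, and heights step down at Tsc22d2 from the peak that crosses it (82 reads) to those past it (34, 21 and 8 reads) and not at B3gnt2, where 24 and 22 reads lie beyond it.

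H3K27me3 was not listed at any of the loci in any of the 4 lines, nor within 50 kb of a window. The nearest H3K27me3 peak of 961C stood 179 kb from the B3gnt2 window, 201 kb from Tsc22d2, 375 kb from Purb and 274 kb from Smc4. In the other lines the nearest peaks stood 174 to 1147 kb away. The H3K27me3 lists hold 4875 to 19469 peaks with a median maximum of 10 to 12 reads, so weaker H3K27me3 was not detectable. They cover 1.2 to 8.86 Mb in all. The share of other windows without H3K27me3 was not computed, so the absence is not read as particular to these loci. The broad 961C domain at Hoxb (chromosome 11, 96132114 to 96184711) had NP23 on 97.1% of its bases, with H3K4me3 on 7.42% of them for 748T, 2.57% for 106A and 2.09% for the control. At Hoxa (chromosome 6, 52156421 to 52185551) NP23 covered 98.2%, and H3K4me3 80.1%, 78.1% and 0% in the same lines. Unlike Hoxa, the 4 loci carried H3K4me3 in the SCL-LMO1 line. On the same measure it lay on 22.9% of the widest 961C peak at B3gnt2, 38.4% at Tsc22d2, 48.7% at Purb and 50.4% at Smc4.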

How the data were processed

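Chromatin immunoprecipitation sequencing covered 13 samples, of which 9 have a peak list. The 4 input samples were not analysed here. Per the labels, cells were fixed with formaldehyde and sonicated, and libraries were sequenced single-end on GAIIx or MiSeq instruments. The submitters' processing notes name CASAVA 1.9, BWA 0.5.9-r26 and build mm9. No peak caller is given in the sources used here.

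A deposited list gives the regions of 1 library, each with the mean and maximum pileup height and those of a second track. Heights are the authors' own values and were not rescaled, and read totals are unknown.

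Peaks overlapping a window by at least 1 bp were taken whole. Extent is the number of bases they cover. For the background share, peaks of the 4 H3K4me3 lists were merged into regions, a step tested on simulated data. Intervals are exact Clopper-Pearson. With 1 library per line and mark, no group test was made. The loci and comparisons were chosen with earlier results of these data known. The genes named are the 4 that name the windows, plus Hoxa, Hoxb and listed neighbours. Python 3.11.15, numpy 2.4.6, pandas 2.3.3, scipy 1.17.1 and matplotlib 3.10.9 were used. Alternatives were joining of peaks, clipping, the taller 50% of each list, other limits, and the folds without 748T or without 106A.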

Additional observations from a re-analysis of the deposited data

How the results depend on the processing

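Of 56 alternative values of the H3K4me3 fold at the 4 loci, 55 stayed above 1. The exception was Purb over the SCL-LMO1 line by span, at 0.989, where a separate peak at the window edge lengthens the span of that line. The loci were selected on their width in the AML line, so folds above 1 were favoured by that choice. The alternatives are also not independent of each other. At Tsc22d2, every setting other than leaving out a line returned the reported fold. The count is therefore a description of the settings and not separate evidence of widening. B3gnt2 moved to 4.17 over the NP23 pre-T mean and 4.36 over the SCL-LMO1 line with the taller 50% of peaks or the widest peak alone. Leaving out each NP23 pre-T line gave folds of 4.51 to 5.55 at B3gnt2, 2.15 to 2.69 at Tsc22d2, 1.35 to 1.99 at Purb and 1.98 to 2.21 at Smc4.

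With peaks joined within 1 kb, the NP23 share of 961C H3K4me3 was 83.2% at B3gnt2, 91.1% at Tsc22d2, 88.7% at Purb and 79.8% at Smc4. At B3gnt2 it was 69.5% with the taller 50% of peaks, 67.3% with NP23 peaks of 500 bp or more and 79.1% for the widest H3K4me3 peak alone. At Purb the last 2 settings gave 87.3% and 95.9%.

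The share of regions with at least 2 times the bases in 961C rose to 31.5% (748T), 29.9% (106A) and 31.8% (SCL-LMO1) in regions of 4 kb or more, and to 35.6%, 38.8% and 36.7% over all regions of 961C. At 1.5 times it was 23.6% for 748T and 21.8% for the SCL-LMO1 line. One-sided widening of peaks without NP23 was 12.3% with limits of 1 kb and 0.5 kb. The widest-peak, overlapping-peak and one-sided settings were chosen after seeing the data. No paired analysis was possible because the values come from no test. Unknown depth limits what a missing peak shows.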
